A study of Homo sapiens with 2 samples.

Results

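miR-1246 and miR-1290 are microRNAs (miRNAs), short RNAs that guide silencing proteins to matching sites in messenger RNA, and both have been described in vesicles shed by tumour cells. They were read here in exosomes of FaDu cells, an established human line from a squamous carcinoma of the hypopharynx, by taking the entries with exactly these names from the scanner output of both arrays. This gave 2 of the 2549 human miRNAs on the array. There was 1 array for FaDu cells carrying the control construct (oe-NC) and 1 for FaDu cells overexpressing HOTTIP (oe-HOTTIP), a long noncoding RNA of the HOXA locus. The treatment labels of both samples name a plasmid lentivirus, while the methods describe a pcDNA3.1 plasmid brought into FaDu cells by lipofection. Each array received 200 ng of RNA, labelled with Cy3 at its 3′ end. How many cultures went into each RNA, and how exosomes were isolated from FaDu cells, is not given in the sources used here.

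Within each sample the title and the treatment label name 1 group, while the description gives the opposite group. Groups here follow the titles, so every direction below holds for the arrays as labelled and reverses if the descriptions hold. The direction used here is opposite to that of the authors' normalized table as its columns are named, and the study's text speaks of miRNAs lowered by HOTTIP in these exosomes. With a single array on each side there is no replicate and no p-value, and the spread between spots of an array is technical error only. The array labelled oe-HOTTIP was brighter, with a median unscaled log2 difference of 0.67 over the 261 miRNAs detected on both arrays, and each array was therefore divided by its 90th percentile over those miRNAs, a shift of 0.65. Over the same 261 miRNAs, 18% were at least 2-fold higher and 21.1% at least 2-fold lower on the oe-HOTTIP-labelled array after scaling, 39.1% in all. miR-205-5p, a miRNA of squamous and other stratified epithelia, was read as a check of the cell type and had intensities of 415 and 489.9 on the arrays labelled oe-NC and oe-HOTTIP.

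miR-1246 is an unusual miRNA, because its sequence lies within U2 small nuclear RNA, a core RNA of the spliceosome, and much of what is measured under its name in cells and vesicles is regarded as a fragment of that RNA. It has been described as induced by p53, and it recurs in circulating panels of pancreatic and colorectal cancer. miR-1290 has been described in tumour-initiating cells of the lung and in plasma exosomes of prostate cancer. A miRNA recognizes its targets mainly through its seed, the bases 2 to 8 from the 5′ end. The mature sequences from RefSeq (GRCh38.p14), 5′ to 3′ and with the seed in capitals, show that the seeds differ:
hsa-miR-1246: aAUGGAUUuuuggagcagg
hsa-miR-1290: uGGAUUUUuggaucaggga
The same sequences with the longest run that both hold in capitals show how close they otherwise are:
hsa-miR-1246: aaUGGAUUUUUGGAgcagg
hsa-miR-1290: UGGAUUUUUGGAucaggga

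Both miRNAs are 19 bases long and share a run of 12 bases, which starts at base 3 of miR-1246 and at base 1 of miR-1290. The seed of miR-1290 lies wholly inside the run, and that of miR-1246 does so but for its first base. Of the 2248 miRNAs of the array with a RefSeq mature sequence, 2 hold this run (0.089%), namely these members, and 0 others share the seed of either. A run of at least 9 bases was found in 1 further miRNA, miR-515-3p, which shares 9 bases with miR-1246 and was detected on neither array. The scanner output gives no probe sequences, so whether a probe of one member also captures the other was not tested.

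The genes of both miRNAs lie apart. Mature miR-1246 is encoded at chr2:176601024-176601042 (GRCh38.p14, minus strand), in a hairpin that overlaps no other gene of the RefSeq table and has the lncRNA genes LOC124907910 and LINC01116 as its neighbours. Mature miR-1290 is encoded at chr1:18897078-18897096 (minus strand), inside the bounds of ALDH4A1, which encodes a mitochondrial enzyme of proline breakdown. Whether that position is exonic or intronic was not determined. The precursor of miR-1246, printed with the mature part in capitals, shows that the miRNA lies on the 5′ side, at bases 11 to 29 of 73:
MIR1246 hairpin: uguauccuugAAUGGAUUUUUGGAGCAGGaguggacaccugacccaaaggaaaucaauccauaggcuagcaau

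With the background subtraction of the scanner software, the 2 members differed in their change between the arrays. After scaling, miR-1290 was 2.44-fold brighter on the oe-HOTTIP-labelled array, while miR-1246 was within 2-fold, at 0.88 times its oe-NC intensity. The methods name a 2-fold threshold together with a corrected p-value, and only the fold can be read from 1 array per group. The size and sign of this difference between them depended on that subtraction. With none, or with normexp (a model of signal and background, with or without an offset of 50), miR-1290 was within 2-fold as well. Its log2 differences after scaling were then -0.09 with no subtraction, -0.26 with the offset and 0.52 without it. Before subtraction and scaling, the spots of its brighter probe were still all brighter on the oe-HOTTIP-labelled array, at 47 to 86 against 32 to 42.5. miR-1246 was bright on both arrays and miR-1290 dim, close to the negative control spots on the oe-NC-labelled array. Both were marked as detected on both arrays by the scanner software.

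miR-1246 had an intensity of 174 ± 117 (SD over 20 spots, pooled within probes) on the oe-NC-labelled array and of 239.7 ± 122 (20 spots) on the oe-HOTTIP-labelled array. The unscaled log2 difference of 0.46 became -0.19 once the arrays were scaled. The spots gave it a spread of 1.22 and, from their number, a standard error of 0.27. The sign of this difference is therefore not resolved within the arrays. It was the 160th highest difference of the 261, and its place by brightness among all 2549 miRNAs was 36th on the oe-NC-labelled array and 40th on the oe-HOTTIP-labelled array. Brightness differs between probes and does not order the amounts of different miRNAs.

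miR-1290 had an intensity of 5.47 ± 2.84 (SD over 20 spots, pooled within probes) on the oe-NC-labelled array and of 21.0 ± 8.67 (20 spots) on the oe-HOTTIP-labelled array. Its log2 difference after scaling was 1.29, with a spread of 0.96 over spots and a standard error of 0.21. This was the 29th highest difference of the 261 miRNAs, of which 47 (18%) passed 2-fold in this direction. Its place by brightness was 309th on the oe-NC-labelled array and 204th on the oe-HOTTIP-labelled array. The difference of miR-1246 minus that of miR-1290 was -1.48 on the log2 scale, a 2.78-fold unequal change, with a spread of 1.55 over spots and a standard error of 0.35. A scaling factor of an array does not alter it, but the background does: it was -0.036 with no subtraction, -0.62 with normexp and no offset, and 0.12 with normexp and an offset of 50.

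**Figure D1:**
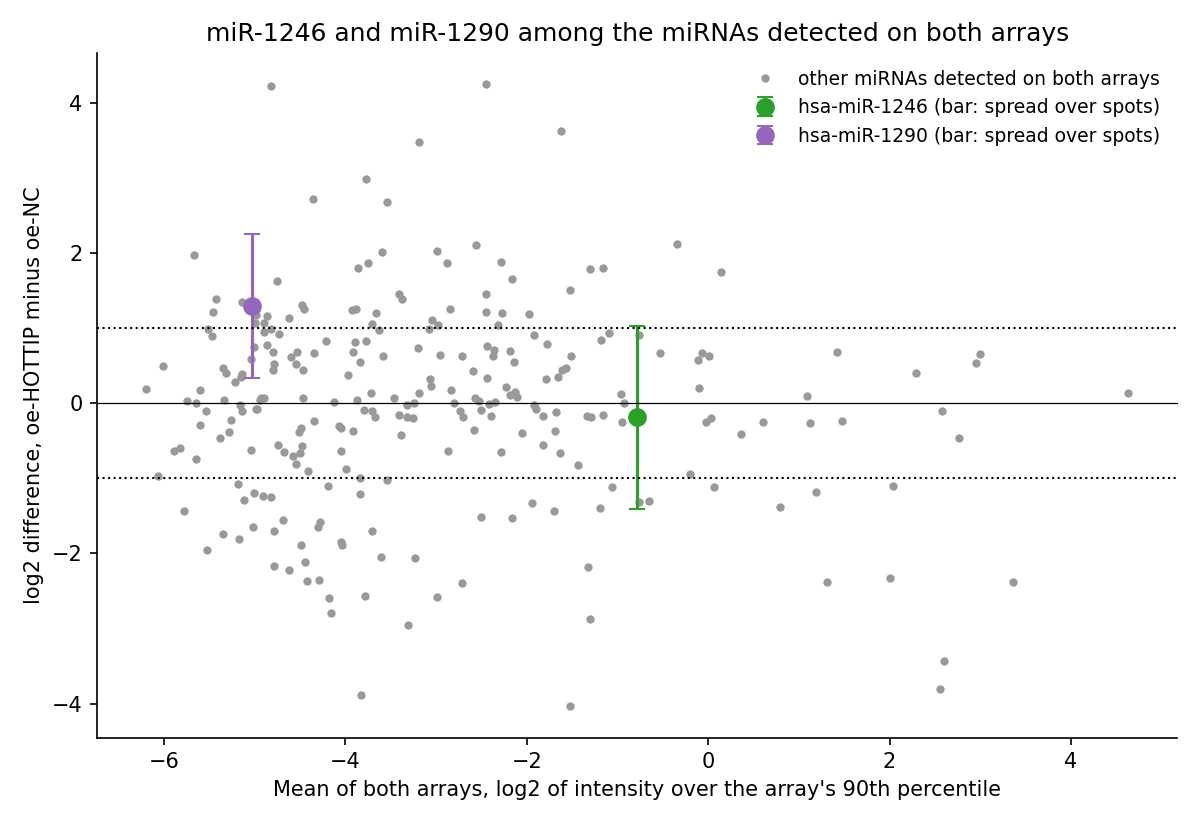
The log2 difference, oe-HOTTIP minus oe-NC, of the 261 miRNAs detected on both arrays (vertical axis) is plotted against the mean of both arrays (horizontal axis, log2 of intensity over the array's 90th percentile), with dotted lines at 2-fold and bars for the spread over spots. miR-1290 stands at 1.29 among the dimmest miRNAs and miR-1246 at -0.19 among the brighter ones.

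Each member was read by a pair of probes with 10 spots each, and in each pair 1 probe carried nearly all of the signal. None of these spots was marked as an outlier or as saturated. For miR-1246 the brighter probe ranged from 46.0 to 623 with a median of 321 on the oe-NC-labelled array, and from 199 to 697 with a median of 493 on the oe-HOTTIP-labelled array. The ranges overlapped over most of their length, and all 10 spots of each array were well above background. The dimmer probe of miR-1246 averaged 4.33 ± 3.91 (SD over 10 spots) and 5.11 ± 3.01, with 0 of 10 spots well above background on either array. The negative control spots lay as low, at 3.87 ± 2.37 (SD of 976 spots) on the oe-NC-labelled array and 3.45 ± 2.21 (975 spots) on the oe-HOTTIP-labelled array.

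For miR-1290 the brighter probe ranged from 4.59 to 15.2 with a median of 7.93 on the oe-NC-labelled array, and from 20.0 to 62.1 with a median of 40.8 on the oe-HOTTIP-labelled array. Before scaling, every spot of the oe-HOTTIP-labelled array lay above every spot of the oe-NC-labelled array. After scaling, 2 of the 10 oe-NC spots exceeded the lowest oe-HOTTIP spot. Well above background were 4 of 10 spots on the oe-NC-labelled array and 10 of 10 on the oe-HOTTIP-labelled array. The dimmer probe of miR-1290 averaged 1.60 ± 1.01 and 3.94 ± 1.91 (SD over 10 spots each), with 0 of 10 spots well above background on either array, so it gives no fold. The detection of miR-1290 on the oe-NC-labelled array rested on a summed signal 3.94 times its error, against 8.27 times on the oe-HOTTIP-labelled array and 9.08 and 9.44 times for miR-1246.

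**Figure D2:**
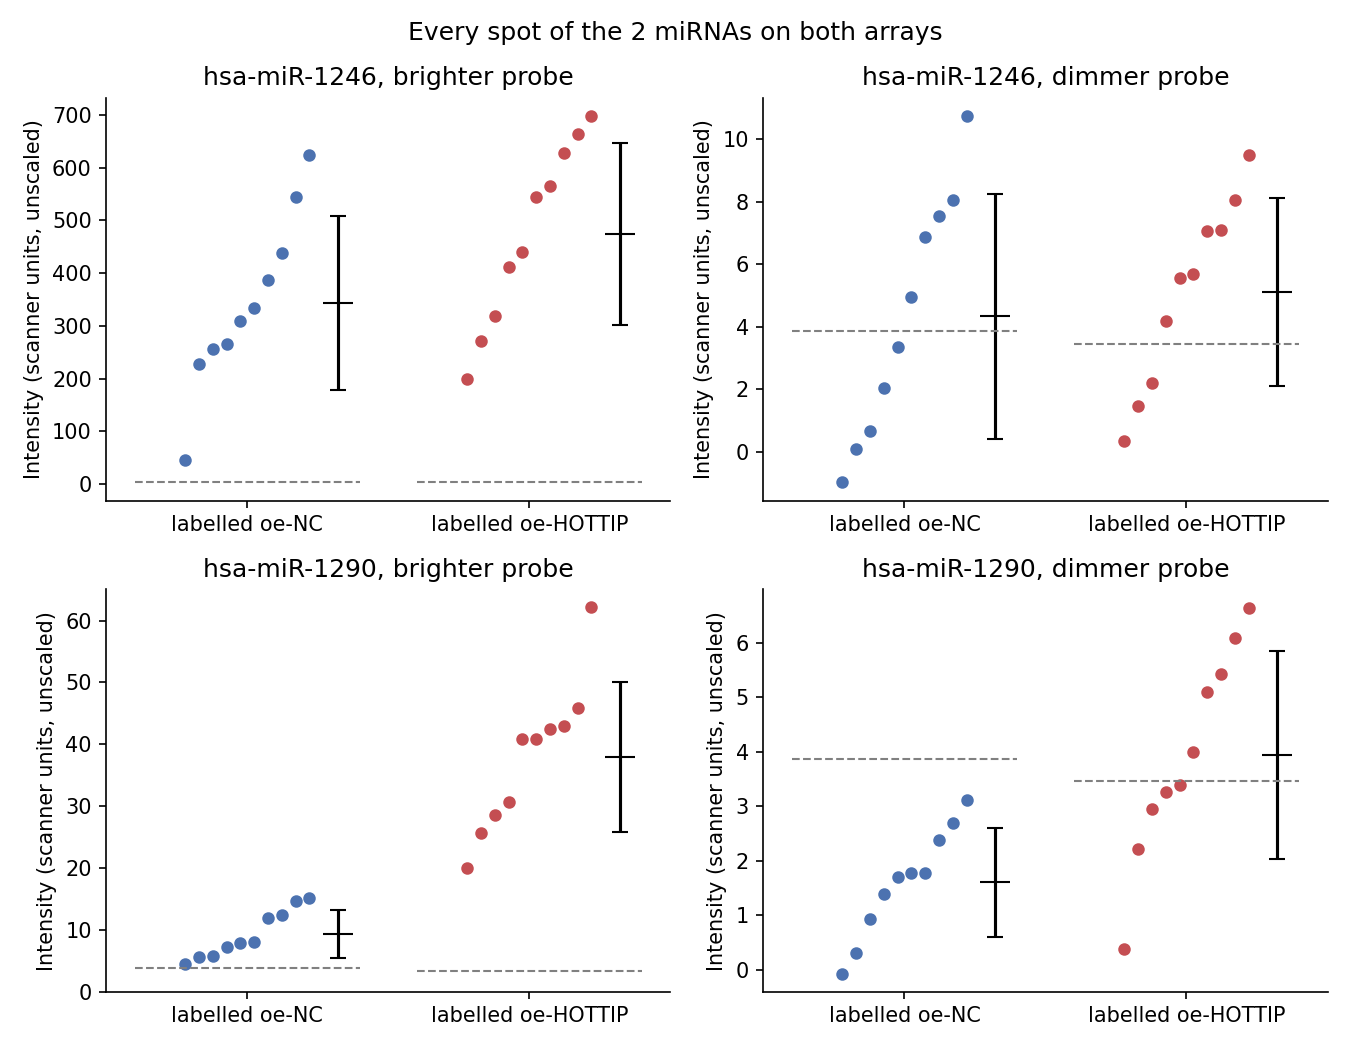
Each point is the unscaled intensity (vertical axis, scanner units) of 1 spot, set side by side in order of intensity, in 4 panels for the brighter and the dimmer probe of each miRNA, with the mean and SD as a black bar and the mean of the negative control spots as a dashed line. The brighter miR-1290 probe goes from at most 15.2 to at least 20.0 between the arrays, the brighter miR-1246 probe overlaps, and both dimmer probes stay near the negative controls.

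Taken from the brighter probe of each miRNA alone, with the arrays scaled in the same way, the log2 difference was -0.08 for miR-1246, with a spread of 0.87 over spots, and 1.48 for miR-1290, with a spread of 0.76. The probes sit at the same positions on both arrays, so each oe-HOTTIP spot can be set against the oe-NC spot at its position. After the reported scaling, miR-1290 was higher on the oe-HOTTIP-labelled array at 10 of 10 positions, by 0.41 to 3.11 on the log2 scale with a median of 1.23, and at least 2-fold higher at 7 of them. miR-1246 was higher at 4 of 10 positions, with log2 differences from -0.93 to 1.46 and a median of -0.24. Positions within an array share 1 RNA and are not replicates of a condition.

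The spots of miR-1246 scattered more than those of other probes of like brightness. The coefficient of variation of its brighter probe was 48.2% on the oe-NC-labelled array, and 0 of the 40 probes within 2-fold of its brightness had a higher one, their median being 10.7%. On the oe-HOTTIP-labelled array it was 36.4%, again with 0 of 60 such probes higher and a median of 8.43%. The dimmest spot was the same on both arrays, the one at row 322 in column 164, the last column of the array, with intensities of 46.0 and 199. Without that spot the coefficients were 36.2% and 30.1%, and still 0 of 37 and 0 of 54 probes had a higher one. The log2 intensities of the 10 positions had a Pearson's r of 0.70 between the arrays, as a description of positions that share a layout, and of 0.32 over the 9 positions left without that spot. For the brighter probe of miR-1290 the coefficient was 41.7% on the oe-NC-labelled array, where 90 of 377 probes of like brightness were higher, and 31.9% on the oe-HOTTIP-labelled array, where 6 of 227 were higher.

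The value of miR-1290 changed with the background subtraction. Before any subtraction, the median pixel signal of its brighter probe averaged 35.9 ± 3.54 (SD over 10 spots) on the oe-NC-labelled array, against 31.4 ± 2.69 for the negative control spots. On the oe-HOTTIP-labelled array it averaged 62.7 ± 11.8, against 29.9 ± 2.41. The unscaled spots of that probe did not overlap, at 32 to 42.5 on the oe-NC-labelled array and 47 to 86 on the oe-HOTTIP-labelled array. With no background subtraction the log2 difference of miR-1290 was -0.09, with normexp and an offset of 50 it was -0.26, and with normexp and no offset 0.52, so that in none of these 3 it passed 2-fold. With the mean of the negative control spots taken off, an alternative chosen after the data were seen, it was 2.79 over both probes and 2.11 for the brighter probe alone. The first of these averages in the dimmer probe, whose oe-NC mean of 1.60 is below the 3.87 of the negative controls. miR-1246 stayed between -0.13 and -0.10 in the first 3, and with the negative controls taken off it was -0.18 over both probes and -0.08 for the brighter one.

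**Figure D3:**
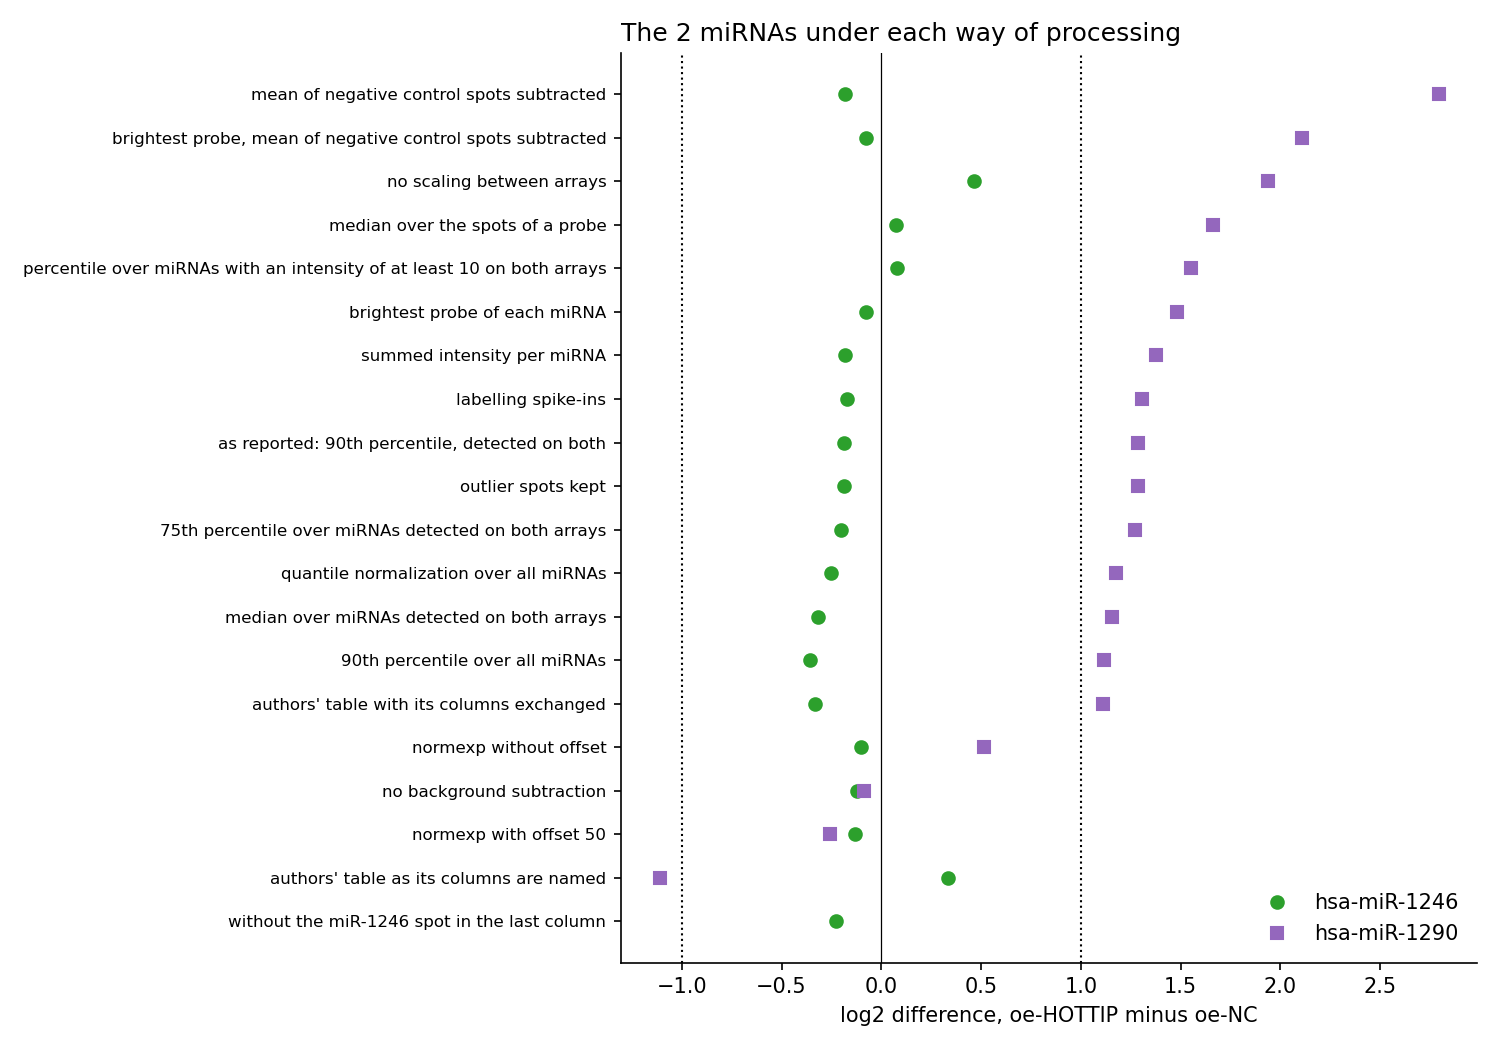
The log2 difference, oe-HOTTIP minus oe-NC (horizontal axis), of miR-1246 (circles) and miR-1290 (squares) is shown for each way of processing, with dotted lines at 2-fold. miR-1246 stays within 2-fold throughout, between -0.36 and 0.46, while miR-1290 runs from -1.11 in the authors' table as its columns are named to 2.79.

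The authors' normalized table gives miR-1246 as 5.69 in its oe-NC column and 6.03 in its oe-HOTTIP column, and miR-1290 as 2.05 and 0.94, on a log2 scale. As named, miR-1290 is thus lower by 1.11 in the column of oe-HOTTIP, the opposite of the scanner output. The ranks show which array each column follows. In the column named for oe-NC, miR-1246 ranked 40th and miR-1290 211th of 388 miRNAs, the same ranks as by summed intensity on the oe-HOTTIP-labelled array. In the column named for oe-HOTTIP they ranked 36th and 293rd of 315, the same ranks as on the oe-NC-labelled array. Over all miRNAs compared, Spearman's rho was 1 in both of these pairings, with 388 and 315 miRNAs. For columns and arrays of the same name it was 0.77 for oe-NC and 0.76 for oe-HOTTIP. The table and the scanner output therefore carry opposite group names for the whole set of miRNAs compared, both members included. The files do not settle which is right. The study selected candidates from miRNAs it describes as lowered by HOTTIP, among them miR-150-5p and miR-150-3p. Both are higher on the oe-HOTTIP-labelled array here, with log2 differences of 1.38 and 1.06. For these miRNAs the direction used here is thus opposite to that of the study.

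Among miRNAs detected on both arrays, those nearest to a member in the pair of scaled log2 intensities, 1 per array, were found by Euclidean distance. For miR-1246 they were miR-15b-5p at a distance of 0.24, miR-23a-3p at 0.25 and miR-20a-5p at 0.34, with log2 differences of -0.25, 0.01 and 0.12. The spots of miR-15b-5p had an SD of 14.6 around 158 on the oe-NC-labelled array, against the SD of 117 around 174 for miR-1246. That mean of miR-1246 averages its brighter probe, at 343, with its dimmer one, at 4.33. The scatter of the brighter probe alone was 48.2% of its mean. For miR-1290 the nearest were miR-6858-5p at 0.11, miR-8072 at 0.16 and miR-150-3p at 0.17, with log2 differences of 1.17, 1.35 and 1.06. A likeness over 2 arrays says little beyond similar brightness.

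A list of 10 other miRNAs reported beside miR-1246 or miR-1290 in panels of circulating tumour exosomes was read in the same way. Of these, 6 were detected on both arrays, 1 on the oe-HOTTIP-labelled array only and 3 (miR-375, miR-1229-3p and miR-3976) on neither. Those on both had log2 differences from 0.01 to 1.38 with a median of 0.65, against a median of 0.02 over all 261. At least 2-fold higher were 2 of the 7 detected and lower 0, beside 33.9% higher and 25.2% lower (59.1% in all) among the 457 miRNAs detected on at least 1 array. miR-150-5p, a miRNA abundant in lymphocytes, went from an intensity of 4.04 ± 2.28 to 16.6 ± 3.07 (SD over 19 and 20 spots), a log2 difference of 1.38. Its oe-NC value is close to the mean of the negative controls. The study has miR-150-5p among candidates selected from miRNAs described as lowered by HOTTIP, the opposite direction. miR-4644, read at 5.80 ± 2.15 (SD over 19 spots) on the oe-HOTTIP-labelled array, was at least 3.79-fold higher there, against the dimmest signal that counts as detected on the other. With a higher floor, the signal where 50% of miRNAs of neighbouring rank are detected, no fold can be given for it, which leaves 1 call.

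The other detected miRNAs of that list had differences under 2-fold. let-7a-5p, of the let-7 family that restrains growth genes, had intensities of 212 ± 40.4 and 528 ± 70.8, a log2 difference of 0.67. miR-4306 had 43.4 ± 6.85 and 106 ± 8.99, a difference of 0.63. miR-223-3p, a myeloid miRNA, had 9.53 ± 5.86 and 24.1 ± 11.7, a difference of 0.69 with a spread of 1.13. The oncogenic miR-21-5p had a difference of 0.10 and miR-23a-3p one of 0.01. miR-23a-3p was nearest to 0, and its sign turned under 3 other scalings (the median, the 75th percentile and the 90th percentile taken over all miRNAs), under the first and last of which 4 of the 6 were above 0.

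miR-1246 shares with a further group of entries that its sequence lies in an abundant structural RNA. A list of 16 such entries, from transfer, ribosomal, mitochondrial and small nucleolar RNA, held 15 on the array, all but miR-4454. Of these, 7 were detected on both arrays, 2 on the oe-HOTTIP-labelled array only and 6 on neither. The 7 had log2 differences from 0.40 to 4.21 with a median of 0.82. All 7 stayed above 0 under the other percentile scalings, the labelling spike-ins and no scaling. Each of these adds the same amount to every difference, at lowest -0.17, so with 0.40 as the lowest value no sign could turn. Of the 9 detected on at least 1 array, 4 were at least 2-fold higher and 0 lower, beside the 33.9% higher and 25.2% lower among all 457 such miRNAs.

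miR-3648, an entry of ribosomal RNA, went from 10.9 ± 2.49 to 62.6 ± 5.11 (SD over 19 and 20 spots), a log2 difference of 1.87. miR-4485-3p, of mitochondrial ribosomal RNA, had the difference of 4.21, but its oe-NC intensity of 2.29 ± 2.26 is below what the negative control spots averaged. miR-1973 and miR-3651, of mitochondrial and small nucleolar RNA, were at least 9.13-fold and 3.83-fold higher by their bounds, neither of which passed 2-fold with the higher floor. miR-1260a and miR-1260b, whose sequences lie in transfer RNA, had differences of 0.91 and 0.82, and miR-5100 had 0.76. The brightest, miR-7977 and miR-6087, had differences of 0.65 and 0.40, with intensities of 1777 ± 93.1 and 1194 ± 69.8 on the oe-NC-labelled array. None of these counts has a test, and both lists were chosen with earlier results of these data known.

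**Figure D4:**
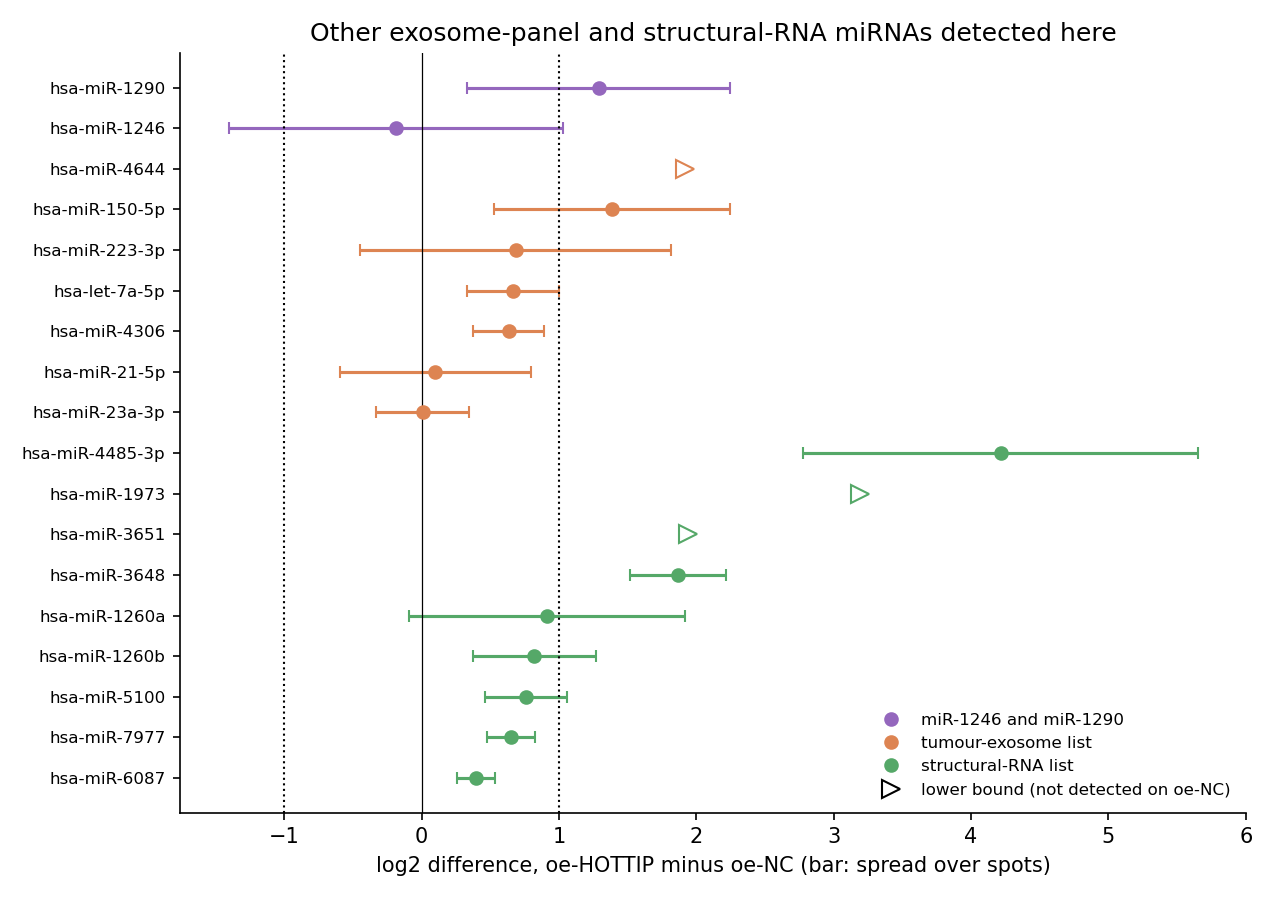
The log2 difference, oe-HOTTIP minus oe-NC (horizontal axis), is shown for miR-1246, miR-1290 and every detected miRNA of both lists, with bars for the spread over spots, open triangles for lower bounds and dotted lines at 2-fold. miR-1246, at -0.19, is the only one plotted below 0 (it was at 0.46 without scaling), and miR-4485-3p stands farthest right at 4.21.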

How the data were processed

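For both arrays the authors deposited the file of Agilent Feature Extraction (11.5.1.1 per the file headers, 10.10 per the labels), with a background-subtracted intensity per spot and a summed intensity per miRNA. They also deposited a table of log2 values after a 90th percentile normalization in GeneSpring, in which undetected miRNAs stand at a floor of 1e-06 or lower. Leaving out control spots and outliers, spots were averaged per probe and probes per miRNA. Both arrays were then scaled to a common 90th percentile, taken over the 261 miRNAs that both detected. A miRNA detected on 1 array only has a bound against the other array's dimmest detected signal, or its own signal there if higher. The SD over spots was pooled within probes, and spreads of log2 differences combine the relative SDs of both arrays. The arrays had 328 and 390 miRNAs detected (oe-NC and oe-HOTTIP), no saturated spot and outlier shares of 3.20% and 3.16%, and their number limits the precision. The summary and the calls were run on simulated data in which both arrays had the same detected miRNAs, so bounds were not tested. The simulated spots scattered less than those of miR-1246.

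Named were the 2 members, the 3 nearest miRNAs to each, miRNAs sharing a seed or a run of at least 9 bases, and the detected miRNAs of both lists. miR-205-5p, miR-31-5p, miR-203a-3p, miR-19a-3p, miR-19b-3p and list members detected on neither array were added after their values were seen. The members and lists were chosen with earlier results of these data known. normexp used median spot signals. Alternatives changed the scaling, background, summary and detection. The sequence of U2 small nuclear RNA was not used here. normexp came from limma 3.58.1 in R 4.3.3, and all else ran in Python 3.11.15 with pandas 2.3.3 and numpy 2.4.6.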

Additional observations from a re-analysis of the deposited data

How the results depend on the processing

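miR-1246 stayed within 2-fold under all 19 alternatives, from -0.36 to 0.46 on the log2 scale. It was below 0 in 15 of them and above 0 in 4, so its direction is not settled. Keeping outlier spots could not change either member, since neither had any. The authors' table entered both ways round, so for each member it adds mirrored values on either side of 0. miR-1290 was above 0 in 15 of 18 alternatives. It changed sign with normexp and an offset of 50 (-0.26), with no background subtraction (-0.086) and in the authors' table as its columns are named (-1.11), and it was 2.79 with the mean of the negative control spots subtracted (2.11 for the brighter probe alone). The difference between both members changed sign with normexp and an offset of 50 (0.12) and in the table as named (1.44). The table runs opposite to the scanner output, and the cause of the other changes was not tested.

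The tumour-exosome list had 2 miRNAs past 2-fold as reported, 5 without scaling and 3 with quantile normalization, all higher. It had 1 higher with the brightest probe, with the higher floor or with the columns of the authors' table exchanged. With the table as named it had 1 lower. With no background subtraction, or with normexp with or without the offset, it had 0. The structural-RNA list had 4 as reported, all higher, and 4 with the table as named, all lower. It had 9 without scaling, 7 with the percentile over miRNAs of at least 10 in intensity and 6 with quantile normalization. With normexp without offset or with the higher floor it had 2. With no background subtraction it had 1, and with normexp at an offset of 50 it had 0. Against the reported scaling, leaving it out moved every log2 difference by 0.65, the percentile over miRNAs of at least 10 by 0.26, the 90th percentile over all miRNAs by -0.17 and the median by -0.13. Under detection by over 50% of spots well above background neither member was detected on either array, since each has at most 10 such spots of 20, so no value was given there. The dimmer probe of each member gives no fold by itself. Both subtractions of negative controls, and leaving out the spot in the last column, were added after seeing the data. No paired analysis was possible because only 1 array stands on either side, which also leaves no replicate to leave out.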
